A study of Mus musculus with 26 samples.

Results

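Pancreatic islets of young mice were compared after culture at 16 and at 11 mM glucose, which asks whether islet gene expression goes on changing above 11 mM. The comparison rests on 4 of the 26 arrays of the series. They are both arrays of young islets at 16 mM and replicates 1 and 2 of the 4 arrays of young islets at 11 mM. Replicates 3 and 4 at 11 mM were left out of the comparison because their ratio of 5' to 3' signal for the Gapdh control was 1.26 and 1.03, against 0.1 to 0.152 on the 4 arrays compared. They were left out to match the arrays, and the low 5' signal is that of the 4 arrays compared. The ratio was 0.12 and 0.152 at 11 mM and 0.1 and 0.134 at 16 mM, so it was lower at 16 mM within each replicate number. The islets came from wild-type male C57BL/6J mice aged 5 weeks. They recovered for 1 day in medium with 11 mM glucose and were then kept for 2 days at the stated concentration, so that the 11 mM group stayed at its recovery concentration throughout. The other arrays hold young islets at 3 and 5.5 mM, a time course after a step from 3 to 11 mM, fresh islets, and islets of mice aged 56 weeks. The labels call the replicates biological and do not say if islets of several mice went into 1 sample, and the p-values measure no more than the spread between these arrays.

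Beta cells take up glucose through the transporter GLUT2 (Slc2a2), phosphorylate it by glucokinase and couple its oxidation to insulin release. Over days, glucose also sets the expression of beta cell genes: it induces the ChREBP target Txnip and prohormone convertases, and low glucose brings up genes of the integrated stress response such as Ddit3. Proinsulin folds in the endoplasmic reticulum (ER), where a rising load engages the unfolded protein response and its chaperones.

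All 4 arrays carried islet RNA. The glucagon gene Gcg read 9436 and 7895 at 11 mM and 9035 and 12004 at 16 mM, in units of array intensity, and the insulin gene Ins2 read 2880 and 2333 at 11 mM and 3501 and 4413 at 16 mM. The 13 tested markers of acinar cells, the enzyme-secreting cells around islets, were dim, with a summed intensity of 1017 and 1108 at 11 mM and 731 and 1531 at 16 mM. Among them Cpa1 read 10 and 38, then 5 and 69. The summed intensity of 19 macrophage and leukocyte markers was 3307 and 2031 at 11 mM and 3484 and 1870 at 16 mM, so it was higher in replicate 1 of both groups. That of 13 stellate and fibroblast markers was 6363 and 5073, then 5816 and 4112. Of the 87 markers in these and 4 further lists for endothelial, duct, Schwann and other endocrine cells, 0 passed the limma test at 16 against 11 mM (6 at an unadjusted p under 0.05, 6.9% against 8.44% of all genes). In whole islets, fewer cells of a type and less RNA per cell cannot be told apart.

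Raising glucose from 11 to 16 mM left nearly all genes below the threshold. Of 12580 genes tested, 1 passed at an adjusted p of 0.05 (0.00795% of the genes). It was Tle3, a Groucho-type transcriptional corepressor with a role in beta cells, and it was lower at 16 mM. The other glucose steps in the same fit, with 2 arrays a group as well, gave more calls. At 5.5 against 3 mM, 762 genes passed (6.06%), 374 higher (2.97%) and 388 lower (3.08%). At 11 against 5.5 mM, 408 genes passed (3.24%), 184 higher (1.46%) and 224 lower (1.78%), and that step shares its 11 mM arrays with the comparison at 16 mM. It gave 102 without replicate 2 at 11 mM. Without adjustment, 1062 genes had p under 0.05 at 16 against 11 mM, 576 higher (4.58%) and 486 lower (3.86%). For 4165 genes (33.1%) the 2 arrays at 16 mM did not overlap with the 2 at 11 mM. A random order of these arrays would give about this share, so a lack of overlap says little for a single gene.

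**Figure D1:**
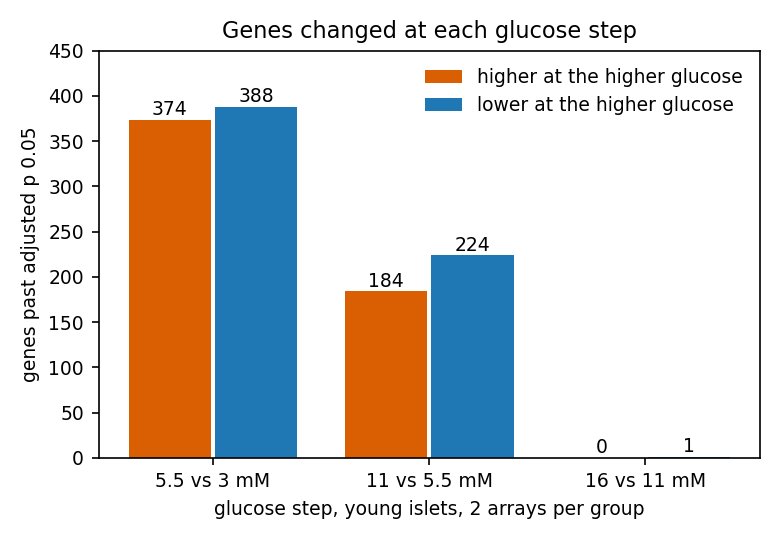
Number of genes past an adjusted p of 0.05 (limma) at each glucose step of young islets, 2 arrays per group. The bars hold 374 and 388 genes at 5.5 against 3 mM, 184 and 224 at 11 against 5.5 mM, and 0 higher and 1 lower gene at 16 against 11 mM.

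The count depends on whether equally numbered arrays are taken as pairs. Deviations of same-numbered arrays at 11 and 16 mM from their group means correlated with r = 0.417 over all genes, and with the replicate number as a block 77 genes passed (0.612%), 57 higher (0.453%) and 20 lower (0.159%). The same block gave 1444 genes at 5.5 against 3 mM and 930 at 11 against 5.5 mM, so the order of the steps was kept. With the block and only the 8 arrays of cultured young islets, 2 genes passed at 16 against 11 mM. The unblocked count was 0 without replicate 1 at 11 mM or without replicate 2 at 16 mM, 57 without replicate 2 at 11 mM and 49 without replicate 1 at 16 mM. The 95% confidence interval lay within 1 log2 unit on either side of 0 for 91.7% of genes. These are units of log2(intensity + 16), in which a 2-fold difference of a dim gene is less than 1 unit.

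Tle3 read 461 and 561 at 3 mM, 408 and 438 at 5.5 mM, 394 and 414 at 11 mM, and 223 and 238 at 16 mM. The arrays at 16 mM were the lowest of the 8, with no overlap. The mean was 404 ± 14.1 at 11 mM and 231 ± 10.6 at 16 mM (SD, n = 2), a log2 change of -0.77 (SE 0.12, adjusted p = 0.0492, and 0.00892 with the block). Replicates 3 and 4 at 11 mM were also kept at 11 mM and read 222 and 207, below both 16 mM arrays, so arrays of the same glucose differed by as much as the groups compared. With all 4 arrays at 11 mM as 1 group the log2 change was -0.34 (adjusted p = 0.334), and the call was also lost with the mean of the gene's 4 probe sets (-0.41, adjusted p = 0.356). The next brightest probe set of Tle3 read 155 and 92 at 11 mM and 108 and 61 at 16 mM. In the time course, which shares no array with the comparison, Tle3 fell by 1.28 on the log2 scale 4 h after the step to 11 mM (adjusted p = 1.5e-06), as 1 of the 11.4% of genes that passed there.

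Genes that mark the glucose response of beta cells, and that rose at the lower steps, gave no call from 11 to 16 mM. Slc2a2 read 1282 and 1049 at 3 mM, 3618 and 4134 at 5.5 mM, 6589 and 4819 at 11 mM, and 6104 and 4994 at 16 mM. Its groups at 11 and 16 mM overlapped, with a log2 change of -0.03 (SE 0.35, 95% confidence interval -0.76 to 0.71), after a rise of 1.72 at 5.5 against 3 mM (adjusted p = 0.00702). Pdx1, the transcription factor that maintains beta cell identity, read 486 and 579 at 3 mM, 1329 and 1512 at 5.5 mM, 1765 and 1696 at 11 mM, and 1685 and 1587 at 16 mM. Its log2 change was 1.39 at 5.5 against 3 mM (adjusted p = 0.00335) and -0.08 at 16 against 11 mM (interval -0.61 to 0.45), where both 16 mM arrays lay slightly below both 11 mM arrays.

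G6pc2, the islet glucose-6-phosphatase that opposes glucokinase, read 1559 and 1503 at 3 mM, 4252 and 5198 at 5.5 mM, 6701 and 6749 at 11 mM, and 7125 and 9883 at 16 mM. Both 16 mM arrays lay above both 11 mM arrays, and the change of 0.32 did not pass (SE 0.22, adjusted p = 0.766). Fer1l6, a ferlin of the family that acts in membrane fusion, read 82 and 68, then 197 and 339, then 741 and 1021, and at 16 mM 900 and 879. It rose at both lower steps, by 1.60 and 1.69 (adjusted p = 0.00561 and 0.00359), and its change at 16 against 11 mM was 0.03 (interval -0.62 to 0.68). Nkx6-1, another beta cell transcription factor, rose by 0.62 at 11 against 5.5 mM (adjusted p = 0.0387) and read 993 and 854 at 11 mM and 1156 and 749 at 16 mM.

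Stress response and other genes that fell with glucose were low at 11 mM and gave no call from there to 16 mM. Ddit3, which encodes the proapoptotic factor CHOP, read 3901 and 3908 at 3 mM, 1756 and 1279 at 5.5 mM, 257 and 251 at 11 mM, and 258 and 226 at 16 mM. Its log2 change was -1.37 and -2.49 at the 2 lower steps (adjusted p = 0.000631 and 1.77e-07) and -0.07 at 16 against 11 mM (SE 0.20, interval -0.48 to 0.34). The stress-induced Nupr1 read 5044 and 6232 at 3 mM, 2471 and 2509 at 5.5 mM, 346 and 594 at 11 mM, and 521 and 734 at 16 mM. Its log2 change was -1.17 and -2.41 at the lower steps (adjusted p = 0.00301 and 6.01e-07), and its change of 0.43 at the top step did not pass (interval 0.00 to 0.87). Stbd1, a glycogen-binding protein, read 1310 and 1067 at 3 mM and 805 and 371 at 5.5 mM, then 39 and 40 at 11 mM and 32 and 36 at 16 mM. Entpd2, an ecto-nucleotidase, went from 1350 and 2220 at 3 mM through 449 and 363 to 114 and 135 at 11 mM, and read 100 and 120 at 16 mM.

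**Figure D2:**
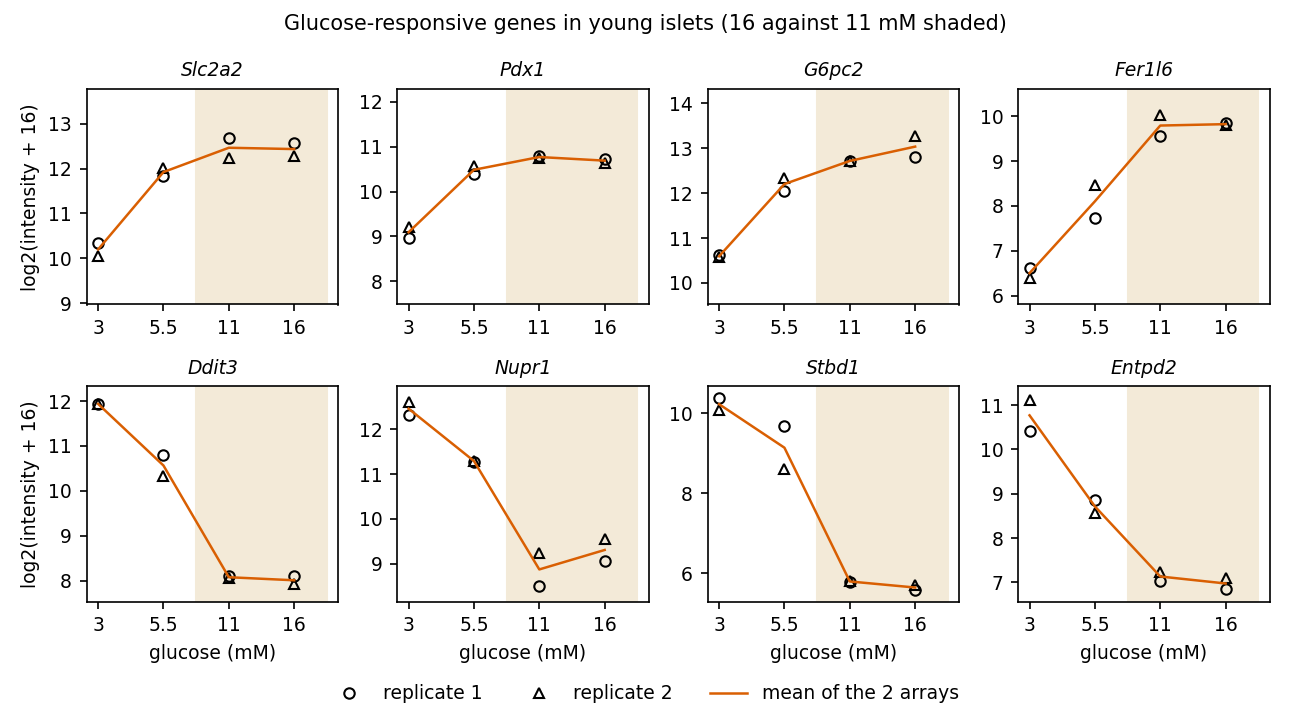
Log2(intensity + 16) of 8 glucose-responsive genes on each array of young islets at 3, 5.5, 11 and 16 mM glucose; circles are replicate 1, triangles replicate 2, the line joins group means and the shading marks the comparison of 16 with 11 mM. From 11 to 16 mM none of the 8 passed the test, with log2 changes between -0.16 (Entpd2) and 0.43 (Nupr1).

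Whether the top step differed from the bottom step was tested by a contrast between 16 minus 11 mM and 5.5 minus 3 mM, which share no array but span unequal concentration ranges. It was chosen after seeing the data. The 2 steps differed for 348 of 12580 genes (2.77%), 184 above 0 and 164 below (257 and 117 with median centring), and for 902 with the replicate block. The count was 63 without replicate 1 at 11 mM and 123 without replicate 2 at 16 mM. The difference was 1.90 for Entpd2 (SE 0.29, adjusted p = 0.00342), 1.60 for Nupr1 (adjusted p = 0.0108), 1.30 for Ddit3 (adjusted p = 0.0208), -1.47 for Pdx1 (adjusted p = 0.0332) and -1.29 for G6pc2 (adjusted p = 0.0311). It did not pass for Slc2a2 (-1.75, adjusted p = 0.0641), Fer1l6 (-1.57, adjusted p = 0.0601) or Stbd1 (0.94, adjusted p = 0.202). These genes had been chosen because they respond to glucose, so the bottom step's part of each difference is fixed by that choice. Of the 374 genes that had risen at 5.5 against 3 mM, 40.1% lay above 0 at 16 against 11 mM, and of the 388 that had fallen, 57.2%, against 45.5% of all genes. Of the 106 genes (0.843%) that had changed at least 2-fold there, the interval at 16 against 11 mM lay within 1 log2 unit of 0 for 86 (81.1%, against 91.7% of all genes).

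Among the genes higher at 16 mM, Txnip came closest to the threshold. Txnip binds thioredoxin, limits glucose uptake and is a direct ChREBP target. It read 356 and 370 at 3 mM, 406 and 353 at 5.5 mM, 722 and 876 at 11 mM, and 1650 and 1945 at 16 mM. The arrays fell into 3 levels without overlap: 3 with 5.5 mM, 11 mM and 16 mM. The mean was 799 ± 109 at 11 mM and 1798 ± 209 at 16 mM (SD, n = 2), a log2 change of 1.16 (SE 0.20, adjusted p = 0.058). With the replicate block the adjusted p was 0.0123, and over the 17 alternatives the change ran from 0.73 with the mean of its 2 probe sets to 1.29. Its other probe set was dim, at 36 and 29, then 37 and 52. Replicates 3 and 4 at 11 mM read 706 and 802, level with replicates 1 and 2. The contrast of the 2 steps passed for Txnip (1.10, adjusted p = 0.0372). Txnip was named also because it passed with the block, so the top step's part of that difference is fixed by that choice. The change of Txnip was 0.06 at 5.5 against 3 mM, so unlike the genes above it changed more at the top than at the bottom step. Both its 11 mM arrays also lay well above its 5.5 mM arrays, so the difference was not confined to the top step.

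Other ChREBP targets gave no call at the top step. Arrdc4, the arrestin-domain relative of Txnip, read 102 and 110 at 11 mM and 141 and 167 at 16 mM, without overlap (0.48, SE 0.18, adjusted p = 0.431). Fasn, fatty acid synthase, rose by 0.72 at 11 against 5.5 mM (adjusted p = 0.00423), then read 629 and 642 at 11 mM and 707 and 577 at 16 mM (0.01, interval -0.27 to 0.29). Pklr, liver-type pyruvate kinase, read 77 and 61, then 68 and 67, and Mlxipl, which encodes ChREBP itself, 2758 and 1774, then 2200 and 1549. Of the 28 tested genes of the ChREBP and lipogenesis list 0 passed (2 were higher at an unadjusted p under 0.05, 7.14% against 4.58% of all genes), and Txnip alone passed with the block. The list's median log2 change was 0.01, against -0.02 over all genes.

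Most genes of prohormone processing and the secretory granule had positive changes at 16 against 11 mM. Of the 18 tested members 0 passed without the block (7 were higher at an unadjusted p under 0.05, 38.9% against 4.58% of all genes), and 3 passed with it (16.7% against 0.612%): Pcsk1, Pam and Vgf. Pcsk1, the convertase that starts proinsulin cleavage, read 622 and 528 at 3 mM, 994 and 952 at 5.5 mM, 1734 and 2715 at 11 mM, and 3314 and 4603 at 16 mM. Its arrays lay in the order of glucose with no overlap between groups. It rose at both lower steps (0.75 and 1.14, adjusted p = 0.0136 and 0.000549), and at 16 against 11 mM the change was 0.84 (SE 0.17, adjusted p = 0.166, and 0.0229 with the block). Pam, which amidates peptide hormones, read 87 and 153 at 11 mM and 157 and 311 at 16 mM (0.85, adjusted p = 0.0351 with the block), but 1629 and 1602 on replicates 3 and 4 at 11 mM.

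Vgf, a granule peptide precursor, read 170 and 578 at 11 mM and 546 and 1310 at 16 mM (1.38, adjusted p = 0.0389 with the block). Its groups overlapped, since replicate 2 was above replicate 1 in both. The median over the list was 0.28 (0.12 between the replicates 1 and 0.49 between the replicates 2), with 15 of 18 members above 0 against 45.5% of all genes. That median was 0.07 after quantile normalization, 0.11 with all 4 arrays at 11 mM as 1 group and 0.48 without replicate 1 at 16 mM. The spike-in control cre, added to each hybridisation, read 11271 on replicate 2 at 16 mM and 6844 to 8436 on the other 3 arrays, and the part of this in the higher hormone signals was not tested. Ins2 itself had a change of 0.60 (SE 0.23, adjusted p = 0.434), and Iapp, the co-secreted amylin gene, read 11024 and 8959 at 11 mM and 10865 and 14283 at 16 mM.

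**Figure D3:**
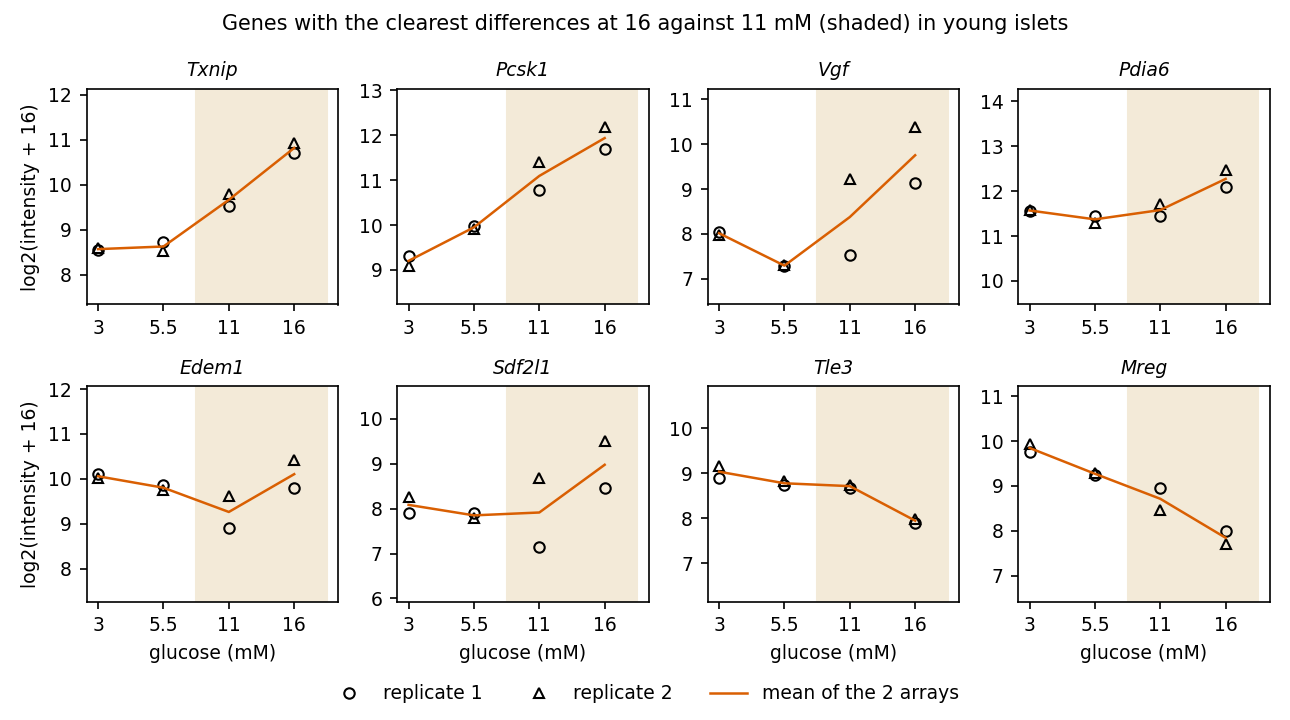
Log2(intensity + 16) on each array of young islets at 3, 5.5, 11 and 16 mM glucose for 8 genes with some of the clearest differences at 16 against 11 mM (shaded); symbols and line are replicates 1 and 2 and the group mean. Tle3 passed the unblocked test, Sdf2l1 passed neither fit, and the other 6 passed only with the replicate block.

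Of the 39 gene lists, the highest medians were those of the machinery that folds and moves secretory proteins. Of 32 tested genes of ER chaperones and the unfolded protein response, 31 had a positive change at 16 against 11 mM (45.5% of all genes had), and for 20 the arrays at 16 mM lay above both at 11 mM, with 0 the other way (15.3% of all genes were higher without overlap). In limma's test 0 passed without the block (21 were higher at an unadjusted p under 0.05, 65.6% against 4.58% of all genes) and 6 passed with it (18.8% against 0.612%): Edem1, Ppib, Pdia6, Manf, Dnajb11 and Edem2. The median log2 change was 0.42, against -0.02 over all genes, -0.06 for the list at 5.5 against 3 mM and 0.13 at 11 against 5.5 mM. Of 31 tested genes of ER translocation and COPII transport, which carry nascent chains into the ER and cargo out of it, 29 were above 0, 16 were higher without overlap, 0 passed without the block (20 were higher at an unadjusted p under 0.05, 64.5%) and 4 with it (12.9%): Srpr, Spcs1, Ssr4 and Lman1. Their median was 0.37.

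A composite promoter element, the ER stress response element, marks part of the chaperone genes and is bound by NF-Y together with ATF6. It was searched as CCAAT, 9 bases of any kind and CCACG, on both strands, in the 250 bases before the start of each gene, in RefSeq promoter windows of assembly GRCm38.p6. It was found in 10 of the 28 chaperone and unfolded protein response genes with a window (35.7%) and in 0 of 24 translocation and COPII genes. Of all 27025 genes with a window, 35 had it (0.13%). The matches of 6 genes are printed to show how the ends, in capitals, are kept while the spacer differs. Names are followed by the distance from the first base of the match to the gene's start, and a match on the minus strand reads as the reverse complement.
Hspa5, 65 bases before the start, plus strand: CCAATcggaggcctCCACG
Pdia6, 98 bases before the start, plus strand: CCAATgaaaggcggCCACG
Dnajc3, 105 bases before the start, plus strand: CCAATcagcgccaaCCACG
Syvn1, 44 bases before the start, plus strand: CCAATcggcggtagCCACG
Creld2, 126 bases before the start, minus strand: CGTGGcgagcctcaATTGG
Derl3, 156 bases before the start, minus strand: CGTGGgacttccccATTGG

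The whole window is shown for Pdia6, the member with the element that passed with the block, and for Hspa5, the main ER chaperone, with the match in capitals. Pdia6 lies on the plus strand, window chr12:17266339-17266588 of GRCm38.p6.
Pdia6: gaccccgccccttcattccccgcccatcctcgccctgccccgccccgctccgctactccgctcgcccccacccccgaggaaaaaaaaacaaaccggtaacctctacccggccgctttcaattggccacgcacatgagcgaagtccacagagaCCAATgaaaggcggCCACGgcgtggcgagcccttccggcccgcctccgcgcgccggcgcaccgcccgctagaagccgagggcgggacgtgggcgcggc
Hspa5 lies on the plus strand too, window chr2:34771840-34772089.
Hspa5: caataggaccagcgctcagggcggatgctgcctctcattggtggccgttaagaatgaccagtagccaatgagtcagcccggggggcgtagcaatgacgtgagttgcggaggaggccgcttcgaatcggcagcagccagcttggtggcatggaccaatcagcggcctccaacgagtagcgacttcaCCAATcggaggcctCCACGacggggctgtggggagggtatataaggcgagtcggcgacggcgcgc
The median log2 change at 16 against 11 mM was 0.45 over the 10 genes with the element (0.19 to 0.74) and 0.40 over the 18 without it (-0.02 to 1.06), so the ranges overlapped, and the difference was not tested. A match in these windows is a description of the letters and not of binding.

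Among the chaperones, Pdia6, a protein disulphide isomerase, read 2795 and 3320 at 11 mM and 4325 and 5638 at 16 mM, against 2484 to 3045 at 3 and 5.5 mM. Its mean was 3058 ± 371 at 11 mM and 4982 ± 928 at 16 mM (SD, n = 2), a log2 change of 0.69 (SE 0.15, adjusted p = 0.166, and 0.033 with the block). Ppib, an ER cyclophilin, read 1704 and 2563, then 2813 and 4325 (0.73, adjusted p = 0.0259 with the block). Dnajb11, a co-chaperone of BiP, read 368 and 520, then 601 and 967 (0.78, adjusted p = 0.0402 with the block), and the groups of all 3 genes did not overlap. Manf, a secreted ER stress protein, read 2754 and 4977, then 4895 and 7418 (0.70, adjusted p = 0.0389 with the block), where replicate 2 at 11 mM exceeded replicate 1 at 16 mM. BiP itself, Hspa5, read 7285 and 9882 at 3 mM, 6326 and 6719 at 5.5 mM, 5440 and 6427 at 11 mM, and 6855 and 9896 at 16 mM, so its 16 mM values lay close to those at 3 mM (0.48 at the top step, SE 0.19, adjusted p = 0.47, and 0.135 with the block).

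Among the genes of ER-associated degradation, Edem1, which directs misfolded glycoproteins to disposal, read 1084 and 1015 at 3 mM, 915 and 839 at 5.5 mM, 464 and 769 at 11 mM, and 872 and 1347 at 16 mM. Its change at the top step was 0.84 (SE 0.19, adjusted p = 0.166, and 0.0282 with the block), and its steps differed (1.10, adjusted p = 0.0318). Edem1 was named because it passed with the block, so the top step's part of that difference is fixed by that choice. A further probe set of Edem1 gave 0.19 at the top step. Edem2 read 252 and 255 at 3 mM and climbed through 371 and 395 and 479 and 759 to 889 and 1102 at 16 mM (0.70 at the top step, adjusted p = 0.0389 with the block). The regulators of the response gave no call: the ATF6 gene Atf6 read 713 and 677, then 758 and 689, the IRE1 gene Ern1 2010 and 1767, then 1931 and 1788, and Xbp1 5820 and 5406, then 6160 and 7042 (0.23, adjusted p = 0.531).

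Of the entry and exit steps, Srpr, the receptor for the signal recognition particle, read 2615 and 3129 at 11 mM and 3690 and 4273 at 16 mM (0.47, SE 0.11, adjusted p = 0.0389 with the block). Spcs1, of the signal peptidase, read 4045 and 5440, then 5542 and 8141 (0.52, adjusted p = 0.038 with the block). Ssr4, of the translocon-associated complex, read 3289 and 4945, then 4872 and 7402 (0.57, adjusted p = 0.0394 with the block). Lman1, a cargo receptor for export from the ER, read 3993 and 4381, then 5086 and 6081 (0.41, adjusted p = 0.0443 with the block). Of these 4, only the groups of Ssr4 overlapped. The COPII coat genes Sec23a (-0.10) and Sec24a (-0.17) were the list's only members below 0, and neither passed.

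The ER values followed the replicate number as well as the glucose. Over all 63 genes of both lists the median log2 level was 10.79 and 11.08 on replicates 1 and 2 at 11 mM and 11.10 and 11.42 at 16 mM, against 10.55 to 10.74 on the 4 arrays at 3 and 5.5 mM. Replicate 2 at 11 mM and replicate 1 at 16 mM thus stood at nearly the same level, and the median difference between them was 0.09, whereas it was 0.68 between replicate 2 at 16 mM and replicate 1 at 11 mM. Within the same number the difference was 0.35 and 0.45. The median change of the 63 genes was 0.41, and it was 0.25 without replicate 1 at 11 mM, 0.21 without replicate 2 at 16 mM, 0.50 without replicate 2 at 11 mM and 0.58 without replicate 1 at 16 mM. After quantile normalization the medians of the 2 lists were 0.32 and 0.25. Of the 63 genes, 45 lay in the brightest 10% of the genes tested, whose 1258 members had a median change of 0.08. At an unadjusted p under 0.05, 15.9% of those bright genes were higher, and 2.7% passed with the block, against 62.2% and 15.6% of the 45 ER genes. The spike-in signal of replicate 2 at 16 mM, given above, stood higher beside these values too, and its part in them was not tested. The Gapdh ratio was higher on replicate 2 than on replicate 1 in both groups, and its part was not tested either.

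**Figure D4:**
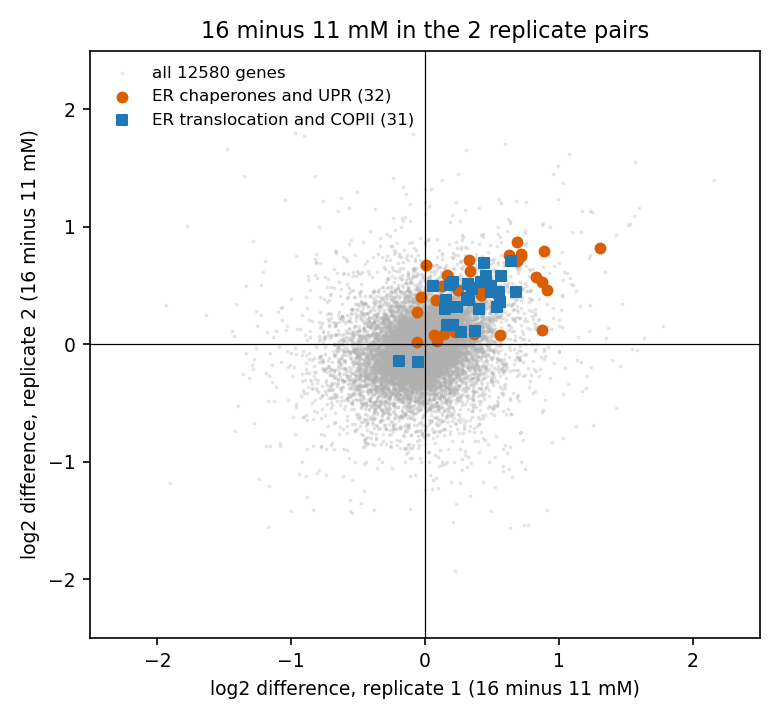
Log2 difference of 16 minus 11 mM between the replicates 1 (horizontal axis) and between the replicates 2 (vertical axis) for all 12580 genes (grey), 32 genes of ER chaperones and the unfolded protein response (circles) and 31 genes of ER translocation and COPII transport (squares). Both differences were above 0 for 58 of the 63 ER genes and for 3336 of all genes.

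Other genes that rose with the block had various roles. Fkbp11, an ER peptidyl-prolyl isomerase, read 122 and 365 at 11 mM and 390 and 795 at 16 mM (1.32, adjusted p = 0.0266 with the block). A dim further probe set of Fkbp11 read 9 and 39, then 30 and 17 (0.07). Nucb2, the nesfatin precursor, read 1872 and 3309, then 3513 and 5669 (0.84, adjusted p = 0.0123 with the block). Gfpt1, the first enzyme of the hexosamine pathway, read 5801 and 5677, then 7251 and 8161 (0.42, SE 0.10, adjusted p = 0.0394 with the block). The groups of these 3 genes did not overlap. The immediate early gene Fos read 59 and 135, then 162 and 313 (1.19, adjusted p = 0.0443 with the block). Hapln4 and Spock1, which encode extracellular matrix proteins, had changes of 0.90 and 0.80 (adjusted p = 0.0292 and 0.0379 with the block). The other probe set of Spock1 read 85 and 130, then 100 and 112, a change of 0.005. Gucy2c, a receptor guanylate cyclase, read 102 and 115, then 183 and 287 (0.98, adjusted p = 0.0389 with the block). Csdc2 had the largest rise, 1.78 (adjusted p = 0.0389 with the block), from 6 and 15 to 82 and 66, but on the arrays at 3 and 5.5 mM it read 9 to 37.

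Among the other genes that fell with the block was Mreg, melanoregulin, an organelle transport protein. It read 849 and 964 at 3 mM, 591 and 613 at 5.5 mM, 482 and 338 at 11 mM, and 238 and 192 at 16 mM, decreasing over the groups without overlap (-0.87, SE 0.17, adjusted p = 0.0229 with the block). Cnr1, the cannabinoid receptor CB1, read 198 and 134 at 11 mM and 100 and 45 at 16 mM (-1.09, adjusted p = 0.00892 with the block), after 162 and 99 at 3 mM and 263 and 222 at 5.5 mM. Jade3, a subunit of histone acetyltransferase complexes, read 623 and 486, then 359 and 354 (-0.60, adjusted p = 0.0389 with the block). Ppm1d, a p53-induced phosphatase, read 212 and 171, then 117 and 86 (-0.83, adjusted p = 0.046 with the block). The other probe set of Ppm1d read 74 and 67, then 60 and 66 (-0.13). The largest fall was of Cntn2 (-1.37), followed by Ampd3 (-1.21), but both read 40 or less on the 4 arrays. Nup54, Grid2ip, Lonrf1, Setd1a and Zfp945 passed with the block as well, with changes between -1.01 and -0.61. The other probe sets of Nup54, Setd1a and Zfp945 gave smaller changes, between -0.45 and -0.16.

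Proliferation genes, which respond to glucose in young islets, gave no call at the top step. Mki67, the marker of cycling cells, read 121 and 246 at 11 mM and 174 and 231 at 16 mM (0.19, interval -0.35 to 0.74), after a rise of 1.52 at 11 against 5.5 mM (adjusted p = 0.00183). The median of 31 tested mitosis genes was 0.56 at 11 against 5.5 mM, with 6 higher, and 0.07 at 16 against 11 mM with 0 called (2 at an unadjusted p under 0.05). It was 0.21 between the replicates 1 and -0.11 between the replicates 2, and it ran from -0.24 without replicate 1 at 11 mM to 0.36 without replicate 2 at 11 mM. Ccnd1, cyclin D1, read 713 and 755 at 11 mM and 1046 and 1045 at 16 mM, without overlap, and did not pass (0.50, SE 0.15, adjusted p = 0.255, and 0.102 with the block). Ccnd2 had a change of 0.23, and the CDK inhibitor Cdkn1a, p21, of 0.38. Myc, which fell by 1.47 at 11 against 5.5 mM (adjusted p = 0.00834), read 39 and 32 at 11 mM and 20 and 32 at 16 mM.

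Markers of oxidative stress, dedifferentiation and the CHOP arm gave no call at the top step. Hmox1, the oxidative stress marker, read 106 and 84 at 11 mM and 114 and 79 at 16 mM (0.01, interval -0.91 to 0.93). Aldh1a3, a marker of beta cell dedifferentiation, was dim throughout, at 18 and 38, then 20 and 63. Trib3, a CHOP target, read 401 and 335, then 451 and 159 (interval -1.05 to 0.21). Atf4 and Asns, asparagine synthetase, had small positive changes (0.26 and 0.32, adjusted p = 0.573 and 0.562), without overlap between the groups. Of 19 tested ATF4 response genes of amino acid synthesis and transport, 15 were above 0 (median 0.14). In limma's test 7 of them were higher at an unadjusted p under 0.05 (36.8% against 4.58% of all genes). The median of the 15 factors and CHOP arm genes was 0.003. Aminoacyl-tRNA synthetases had a median of 0.15, with 14 of 17 above 0. In these 3 sets 0 were called in either fit. Slc2a1, the ubiquitous glucose transporter, fell by 1.37 at 5.5 against 3 mM (adjusted p = 0.00748) and read 221 and 209, then 208 and 254. Scd1 and the opioid precursor Pdyn overlapped between groups, with changes of -0.01 and 0.72.

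Of the other lists, oxidative phosphorylation subunits had a median of 0.14, with 39 of 43 above 0. Of them 1 passed with the block (2.33% against 0.612% of all genes), Uqcrq of complex III (0.57, adjusted p = 0.0389). That median was 0.08 without replicate 2 at 16 mM or after quantile normalization. Proteasome subunits had a median of 0.15, with 27 of 31 above 0 and 0 called in either fit (3 at an unadjusted p under 0.05). Among the lowest medians were those of the circadian clock list (-0.18, 14 of 17 below 0), the inflammatory and interferon list (-0.18, 17 of 25) and TGF-beta and matrix genes (-0.18, 11 of 16). The stellate and fibroblast markers stood as low (-0.18, 11 of 13). Of all 12580 genes, 6843 were below 0. In each of these lists 0 were called in either fit (in the order given, 0, 0, 1 and 1 at an unadjusted p under 0.05, limma). Without replicate 1 at 16 mM the median was -0.34 for the clock list and 0.00 for the inflammatory list. Without replicate 2 at 16 mM it was -0.06 for the clock list, and without replicate 2 at 11 mM it was -0.12 for the inflammatory list. Cholesterol synthesis genes, 7 of which had risen at 11 against 5.5 mM, had a median of 0.03, made of 0.38 between the replicates 1 and -0.23 between the replicates 2, and it was -0.20 without replicate 1 and 0.36 without replicate 2 at 11 mM. Islet transcription factors had a median of -0.08, and glycolysis genes of 0.01. Over all 39 lists, 751 genes were tested, 0 passed without the block (116 at an unadjusted p under 0.05, limma, 15.4% against 8.44% of all genes) and 17 passed with it (2.26% against 0.612%).

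**Figure D5:**
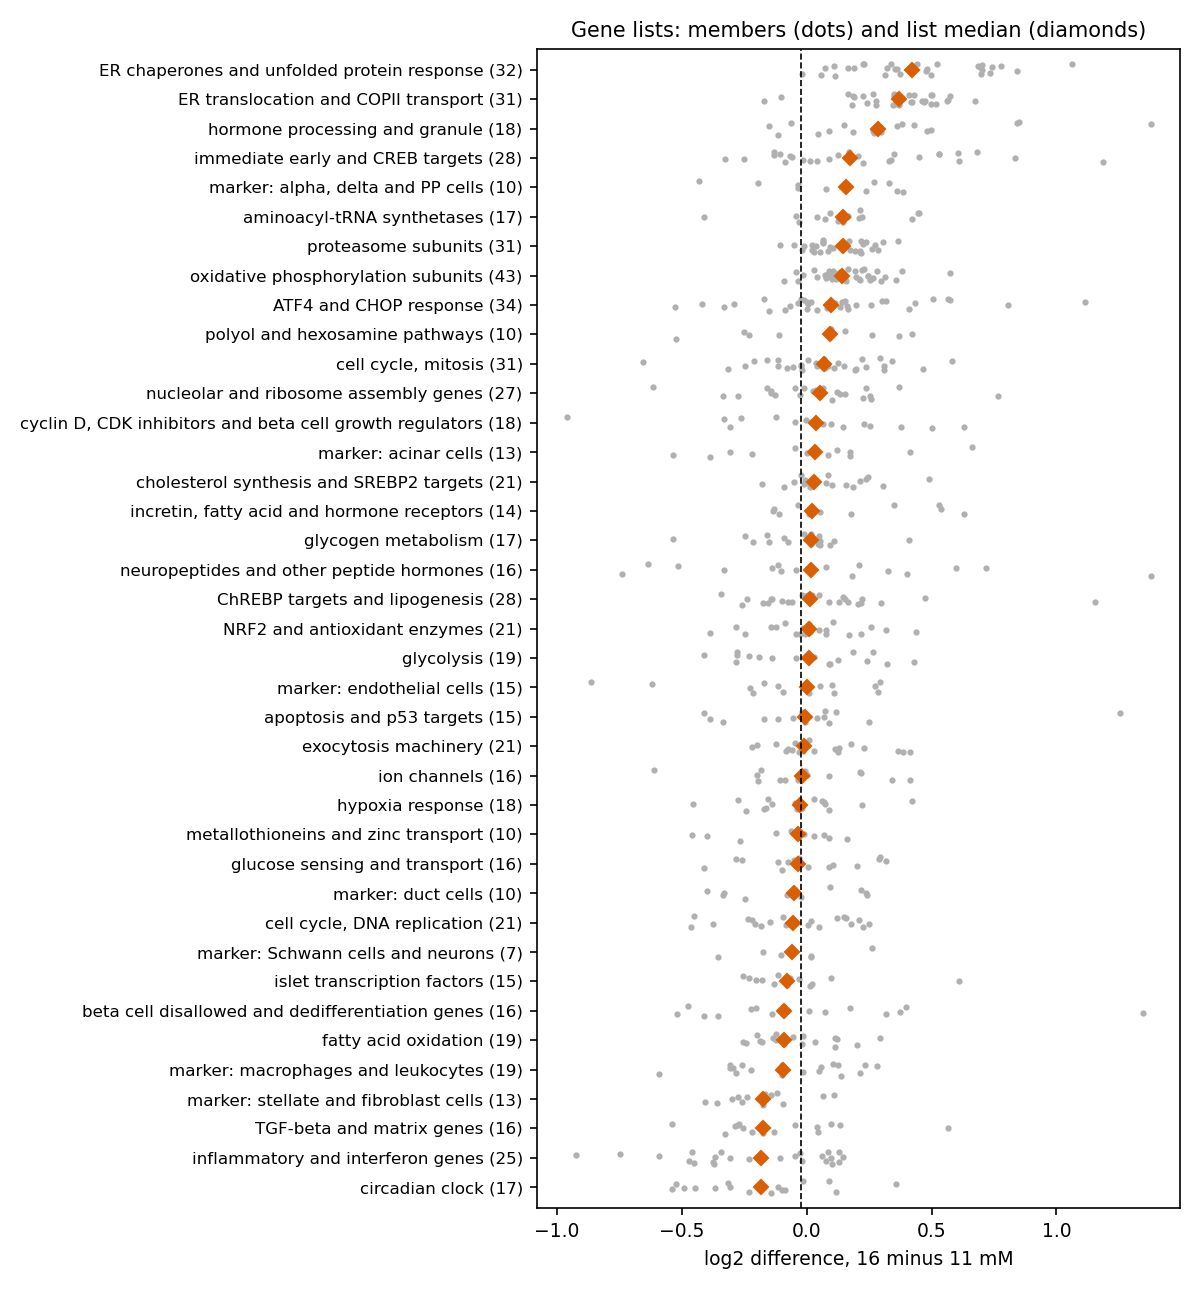
Log2 difference of 16 minus 11 mM for the members (dots) of 39 gene lists, with list medians (diamonds) and the number of tested genes in brackets; the dashed line is the median of all genes, -0.02. The ER lists stand highest, at 0.42 and 0.37, and the circadian clock and inflammatory lists lowest, at -0.18 each.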

How the data were processed

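Total RNA of mouse islets (Trizol, 50 ng, 2 rounds of cDNA synthesis per the labels' protocols) was hybridised to Affymetrix whole-genome arrays. The deposited values are linear probe set intensity; per the submitters' processing notes the authors used MAS5, whose version is not given in the sources used here. The mean of each array, trimmed by 2% at each end, was 150, which shows scaling before deposit. Detection calls were not used here, and the precision is limited by the number of arrays.

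Intensities entered the analysis as log2(value + 16) without another scaling step. This shrinks the log2 changes of dim genes. Of the 45101 probe sets, 34945 have 1 gene symbol in the platform annotation, 932 have several and 9160 none, and 34741 symbols were updated by Entrez identifier. The 23047 probe sets that exceeded the median of at least 2 arrays were kept, and each gene was represented by its brightest probe set. Of 30 named genes with several probe sets, 8 had one of opposite sign. A model of 13 group means, with 11 mM split by array set, was fitted over all 26 arrays with limma 3.58.1 in R 4.3.3, with an intensity trend (13 residual and 7.02 prior degrees of freedom). The words rose, fell and passed stand for a Benjamini-Hochberg adjusted p under 0.05. The procedure was run on simulated data with known changes and independent noise on each array. Such data hold no replicate effect, so they cannot check the pairing by replicate number.

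Replicate numbers, from the labels, were taken to pair the cultured young arrays, since same-numbered arrays deviated together from their group means for every pair of groups (r = 0.169 to 0.417). Across young and old groups, whose mice differ, r was 0.0694 to 0.225, so the pairing is not certain. Named genes are 33 chosen genes (30 tested), the 12 largest rises and falls past the threshold without overlap, and up to 4 called members of each list, taken from the unblocked and the blocked fit. The comparison, the genes and the lists were chosen with earlier results of these data known. Genes named outside that rule, such as Gcg, Iapp, Atf6, Sdf2l1, Dnajb11, Edem2 and Sec23a, were chosen after their values were seen. Promoter windows come from RefSeq, assembly GRCm38.p6. Alternatives were the offset, the filter, the choice of probe set, normalization, trend, the arrays in the fit, the replicate block and leaving out each array.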

Additional observations from a re-analysis of the deposited data

How the results depend on the processing

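Over the alternatives, the genes called at 16 against 11 mM numbered 3 with an offset of 1 or of 64, 2 with median centring or with all 4 arrays at 11 mM as 1 group, and 0 with no filter, the mean of probe sets, quantile normalization, no trend, only the 8 cultured young arrays or only the 4 arrays compared. In the 6 settings that gave 0, limma gave 599 to 1345 genes at an unadjusted p under 0.05. The replicate block gave 77, or 2 with only 8 arrays, and leaving out 1 array gave 0 to 57. List genes called numbered 1 with either offset, median centring, 1 group at 11 mM or the 8-array block, 17 with the replicate block and 0 to 15 without 1 array. The chaperone list's median ran from 0.213 to 0.617 without 1 array, the translocation list's from 0.231 to 0.538 and that of oxidative phosphorylation from 0.080 to 0.176. The last was 0.083 after quantile normalization and 0.210 with 1 group at 11 mM. The median of the hormone list was 0.072 after quantile normalization, 0.105 with 1 group at 11 mM and 0.195 to 0.483 without 1 array. That of the proteasome list was 0.106 with the mean of probe sets, 0.065 after quantile normalization, 0.190 with median centring, 0.234 with 1 group at 11 mM, and 0.096 to 0.171 without 1 array. Calls at 5.5 against 3 mM numbered 256 with 8 arrays, 149 with 1 group at 11 mM and 1444 with the replicate block. At 11 against 5.5 mM they numbered 126, 618 and 930, and 102 to 446 without 1 array. The steps differed for 162 genes with the mean of probe sets, 161 with no trend, 23 with 8 arrays, 177 with 1 group at 11 mM, 902 with the replicate block and 63 to 305 without 1 array. The causes were not tested. Of the values of 62 named genes under 17 alternatives, 0 reversed among called values, 68 gained and 10 lost the call. All 10 losses were of Tle3, the only gene called in the main fit, so no other gene could lose a call. Many of the named genes were chosen because they passed with the replicate block, so their gain there is fixed by that choice. These counts therefore do not measure stability. A further 147 uncalled values moved by at least their SE. With 2 arrays a group, intervals are wide: the median SE of a log2 change was 0.182.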
